A study of Mus musculus with 13 samples.

Results

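Double negative 4 (DN4) thymocytes of mice with a deletion of Opa1 were compared with DN4 thymocytes of control mice, and the nuclear genes were followed gene by gene and list by list. Both groups were 6-week-old C57BL/6 mice that carried the Lck-Cre transgene, which expresses Cre recombinase in developing T cells from the double negative stages on. The mice called KO-labelled here were Opa1 fl/fl and Lck-Cre+, and the WT mice had no floxed Opa1 and were Lck-Cre+, so Cre was present in both. The comparison used 7 of the 13 libraries of the series, 1 library per mouse: KO45, KO49 and KO51 against WT05, WT40, WT46 and WT48. The remaining 6 libraries are DN3 cells of the same mice except WT40, and their values are set beside the DN4 values where they bear on them. DN3 and DN4 cells lie before and after β-selection, the checkpoint that thymocytes pass once they carry a working T cell receptor β chain. The cells were freshly sorted and received no treatment.

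OPA1 is the dynamin-like GTPase of the inner mitochondrial membrane that fuses inner membranes and shapes the cristae in which the respiratory chain sits. Cells with a damaged respiratory chain often switch on the integrated stress response, in which phosphorylated eIF2α favours translation of the transcription factor ATF4. ATF4 in turn raises genes for amino acid synthesis, amino acid uptake and tRNA charging, with asparagine synthetase as the best known target. In the thymus, DN4 cells divide fast, lose NOTCH signals and move on to the CD4+CD8+ double positive (DP) stage. DN4 cells are defined by the absence of surface markers, so marker genes of B cells, γδ T cells and innate lymphocytes were followed as well. The flow cytometry plots of the study used a lineage-negative gate, which removes the lineages its antibodies cover, and whether the cells sorted for RNA passed that gate is not given in the sources used here.

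Opa1 itself did not separate the groups. Its level in CPM, the counts scaled to a common library size, was 81.8, 82.9 and 92.2 CPM in the KO-labelled libraries and 91.5, 96.1, 89.8 and 85.5 CPM in the WT libraries. The log2 fold change, always KO-labelled minus WT, was -0.08 with a standard error of 0.09. The counts cover the whole gene on chromosome 16, positions 29579334 to 29654884 of GRCm38, and an exon lost to Cre would take away only its own reads, so they do not check the labels. The mtDNA-encoded mt-Co1, a core subunit of complex IV, did separate them. It stood at 2859, 2863 and 3168 CPM in the KO-labelled libraries and at 7998, 8099, 8568 and 6565 CPM in the WT libraries. Its log2 fold change was -1.40 ± 0.13 (SE), with an adjusted p of 0.0220 by edgeR's quasi-likelihood test. The value lay between -1.48 and -1.36 with 1 library left out at a time. Without KO45, KO49, KO51, WT05, WT40 or WT46 the adjusted p by edgeR was between 0.102 and 0.180, and without WT48 it was 0.0142.

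The libraries held 9565303 to 14148661 counts in the KO-labelled DN4 group and 9816505 to 12211338 in the WT DN4 group. T-lineage genes were present throughout. Cd3e, a chain of the T cell receptor complex, was at 351, 278 and 350 CPM in the KO-labelled libraries and at 256, 385, 367 and 267 CPM in the WT libraries. Il2ra, which encodes CD25 and is lost on the way from DN3 to DN4, lay between 10.1 and 25.7 CPM in DN4 and between 709.9 and 1290 CPM in DN3. The labelled stage therefore showed in every library. Cd4 and Cd8a, which DN4 cells should lack on their surface, were read in all DN4 libraries, with Cd8a between 79.0 and 1205 CPM. WT40 and WT46 had counts on Y-chromosome genes and Xist at 0.20 and 0 CPM, while the other 5 mice had Xist between 1168 and 1402 CPM. The KO-labelled libraries thus lacked Y-chromosome counts and the WT group was mixed. Without WT40 and WT46 the log2 fold changes of Asns and Nkg7, described below, were 3.99 and -0.79.

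No nuclear gene passed the main test. Of 13084 genes tested 7 passed an adjusted p of 0.05 by edgeR (0.0535%), all lower in the KO-labelled libraries. They were mt-Co1, mt-Nd5, mt-Cytb and 4 pseudogenes of chromosome 1 that resemble mtDNA, which left 0 of 13062 nuclear genes (0%). At an unadjusted p under 0.05 there were 701 nuclear genes, 367 higher in the KO-labelled libraries (2.81% of those tested) and 334 lower (2.56%). Values of all KO-labelled libraries lay above all WT libraries for 444 nuclear genes (3.4%) and below them for 396 (3.03%). These shares are the background for every list below. Since no nuclear gene passed, the nuclear differences are given as levels, fold changes and unadjusted p-values of edgeR, and none of them is a call. The Wald test of DESeq2 called 44 genes outside mtDNA, 10 higher (0.0758%) and 34 lower (0.258%). Of the lower ones 4 were Y-linked genes and 5 were further mtDNA-like pseudogenes, in which at least 20% of all 50-base stretches also occurred in mtDNA transcripts. That left 35 other nuclear genes, 10 higher and 25 lower, and 6 of them, Asns, Cox6a2, Itgae, Ms4a4b, Nkg7 and Notch3, were called by DESeq2 whichever library was left out.

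The sequences upstream of the stress response genes are shown first, because Asns, one of them, had the largest fold change of the nuclear genes that passed the edgeR filter on low counts. ATF4 binds with C/EBP partners at a composite element, searched here as TGATGNAAN on both strands in RefSeq promoter windows of GRCm38.p6 that run from 250 bases before to 50 bases after a gene start. Asns lies on the minus strand of chromosome 6 and its upstream 250 bases are chr6:7693210-7693459. The capitals mark the match, which begins 23 bases before the start.
Asns: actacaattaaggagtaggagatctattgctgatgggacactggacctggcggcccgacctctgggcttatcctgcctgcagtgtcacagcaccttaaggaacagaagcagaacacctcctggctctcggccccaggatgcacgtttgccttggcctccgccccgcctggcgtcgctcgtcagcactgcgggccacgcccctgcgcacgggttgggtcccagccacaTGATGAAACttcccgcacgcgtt

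Shorter stretches show the matches of 4 of the other list members whose unadjusted p was under 0.05, again on the strand of the gene and with matches in capitals (a match on the opposite strand reads as the reverse complement of the element). They come from chr2:152344029-152344057 (minus strand), chr12:85599373-85599401 (plus), chr11:20332700-20332728 (minus) and chr3:50443643-50443689 (minus), in this order.
Trib3: ttagctcaggTTTACATCAgccgggcggg
Jdp2: tagccggggcTGATGCAACccgtcccgcc
Slc1a4: tgcctcctgcGTTGCATCAtctccagcct
Slc7a11: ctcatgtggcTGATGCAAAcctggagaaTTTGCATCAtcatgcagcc

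The Jdp2 match lies in 1 of its 3 windows. In all, 1299 of 32851 promoter windows held a match (3.95%). The share was 8 of 28 windows of the integrated stress response list (28.6%), 5 of 13 of the tRNA synthetases (38.5%), 2 of 15 of the amino acid transporters (13.3%) and 1 of 14 of the serine and one-carbon enzymes (7.14%). The table of windows covers 13 of 22 synthetases and 11 of 15 transporters, and Cars and Slc7a3 were not searched. Neither window of Atf5 held one. A match did not go with a difference in every member. Gars, Iars, Tars and Yars, which charge glycine, isoleucine, threonine and tyrosine tRNAs, are 4 of the 5 synthetases with a match, and had log2 fold changes of 0.07, 0.19, 0.10 and 0.16, with unadjusted p-values of 0.603, 0.216, 0.340 and 0.342. The other, Aars, had 0.35 with an unadjusted p of 0.0296. The match is a description of these letters and not a mapped binding site. The lists hold gene groups that ATF4 is known to raise, so shares above that of all windows come with the choice of lists. They do not bear on the deletion of Opa1.

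Asns, which makes asparagine from aspartate and glutamine, was near the detection limit in WT DN4 cells and clearly read in KO-labelled cells. Its level was 2.51, 11.5 and 8.46 CPM in KO45, KO49 and KO51 and 0.505, 0.50, 0.736 and 0.408 CPM in the WT libraries, from 33, 163 and 81 counts against 6, 5, 9 and 4. The groups did not overlap, and KO45 was the lowest of the KO-labelled mice. The log2 fold change was 3.76 ± 0.53 (SE), or 13.6-fold, with an unadjusted p of 8.84e-05 and an adjusted p of 0.109 by edgeR, the smallest p of any nuclear gene. DESeq2 gave an adjusted p of 8.93e-08. With 1 library left out at a time the fold change stayed between 3.30 and 4.18 on the log2 scale.

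Trib3, a pseudokinase that binds ATF4, was at 2.06, 2.75 and 1.57 CPM in the KO-labelled libraries and at 0.505, 0.800, 0.491 and 0.713 CPM in WT. Its log2 fold change was 1.76 ± 0.36 (SE) and its unadjusted p 0.000993. The groups did not overlap, but all levels were low. Atf5, a transcription factor of the mitochondrial stress response, was at 15.5, 15 and 16.5 CPM against 10.8, 10.1, 12.8 and 8.36 CPM, a log2 fold change of 0.57. Jdp2, a bZIP repressor, was at 7.54, 6.83 and 6.48 CPM against 4.12, 3.20, 3.76 and 5.30 CPM, a log2 fold change of 0.76. For both the KO-labelled libraries again lay above all WT libraries. Atf4 and Ddit3, 2 transcription factors of the response, showed little difference in RNA. Atf4 was at 219 ± 20.6 CPM (SD, n = 3) in KO-labelled and 215 ± 12.1 CPM (SD, n = 4) in WT libraries, and Ddit3 at 22.2 ± 2.89 and 20.5 ± 5.12 CPM. Of the 25 genes on the integrated stress response list 17 were tested, 13 had a positive and 4 a negative fold change, and 4 were higher at an unadjusted p under 0.05 with none lower. The median log2 fold change of the list was 0.11, against 0.0025 over all nuclear genes tested. Asns and Trib3 are 2 of the 4 and passed the filter on low counts only through the KO-labelled libraries, since every WT library held fewer than 10 counts of each. With at least 10 counts required in every library 15 members were tested, 2 were higher and the median was 0.07, so the count is no support for a shift of the list. It was 4 or 5 with any one library left out, while the median ran from 0.02 (without WT46) to 0.29 (without KO51) and 9 of 17 were positive without KO49. Without both libraries with Y-chromosome counts 3 were higher and the median was -0.03.

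Amino acid transporters were the neighbouring group. Slc7a3, a carrier of cationic amino acids, was at 1.37, 3.45 and 2.61 CPM in the KO-labelled libraries and at 1.09, 0.900, 0.818 and 0.408 CPM in WT, a log2 fold change of 1.60 ± 0.44 (SE). Slc1a4, a carrier of alanine, serine and cysteine, was at 2.89, 6.62 and 3.76 CPM against 2.61, 2.40, 2.78 and 1.43 CPM. In both the KO-labelled libraries lay above the WT libraries, and KO45 only just. Slc7a11, the cystine carrier that feeds glutathione synthesis, was at 52.2, 6.05 and 8.15 CPM against 2.19, 12.5, 2.78 and 0.713 CPM. Its groups overlapped through WT40, its log2 fold change was 2.30 and depended on KO45, without which it fell to 0.65. Of 14 transporters tested these 3 were higher at an unadjusted p under 0.05, none was lower and the median was 0.13. Slc7a3 and Slc7a11 each had WT libraries under 10 counts, and with at least 10 required in every library 1 of 12 was higher and the median was 0.09. Without WT05, or without WT48, 1 was.

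Lists of tRNA charging, serine and aspartate metabolism gave few members at an unadjusted p under 0.05, in numbers that depended on KO45. Among 20 cytosolic tRNA synthetases 15 had a positive fold change, and Cars (0.39, unadjusted p 0.0137) and Aars (0.35, unadjusted p 0.0296), which charge cysteine and alanine tRNAs, had the smallest p. Aars2, which charges the mitochondrial alanine tRNA, is not on that list but was named by its rank among genes whose groups did not overlap. It was at 98.3, 74.3 and 88.3 CPM against 51.1, 62.9, 62.3 and 59.5 CPM. Among 15 serine and one-carbon enzymes 12 had a positive fold change, the median was 0.11 and none had an unadjusted p under 0.05. Without KO45, 8 synthetases and 4 of the serine and one-carbon enzymes were higher at that level, with medians of 0.17 and 0.30. Without KO51 6 of the 15 enzymes were positive, and without KO49 no synthetase was at that level. The aspartate list, which holds the malate-aspartate shuttle, had 8 positive and 9 negative members of 17, with 11 positive without KO45 and 3 without KO51. Cox6a2, a muscle-type subunit of complex IV, had too few counts for the edgeR filter, with 10, 94 and 50 counts in the KO-labelled libraries and 2, 2, 4 and 1 in WT. The pooled rates differed 20.4-fold with an exact 95% interval from 10.4 to 45.4 that covers counting error only, and DESeq2 gave an adjusted p of 0.000118.

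**Figure D1:**
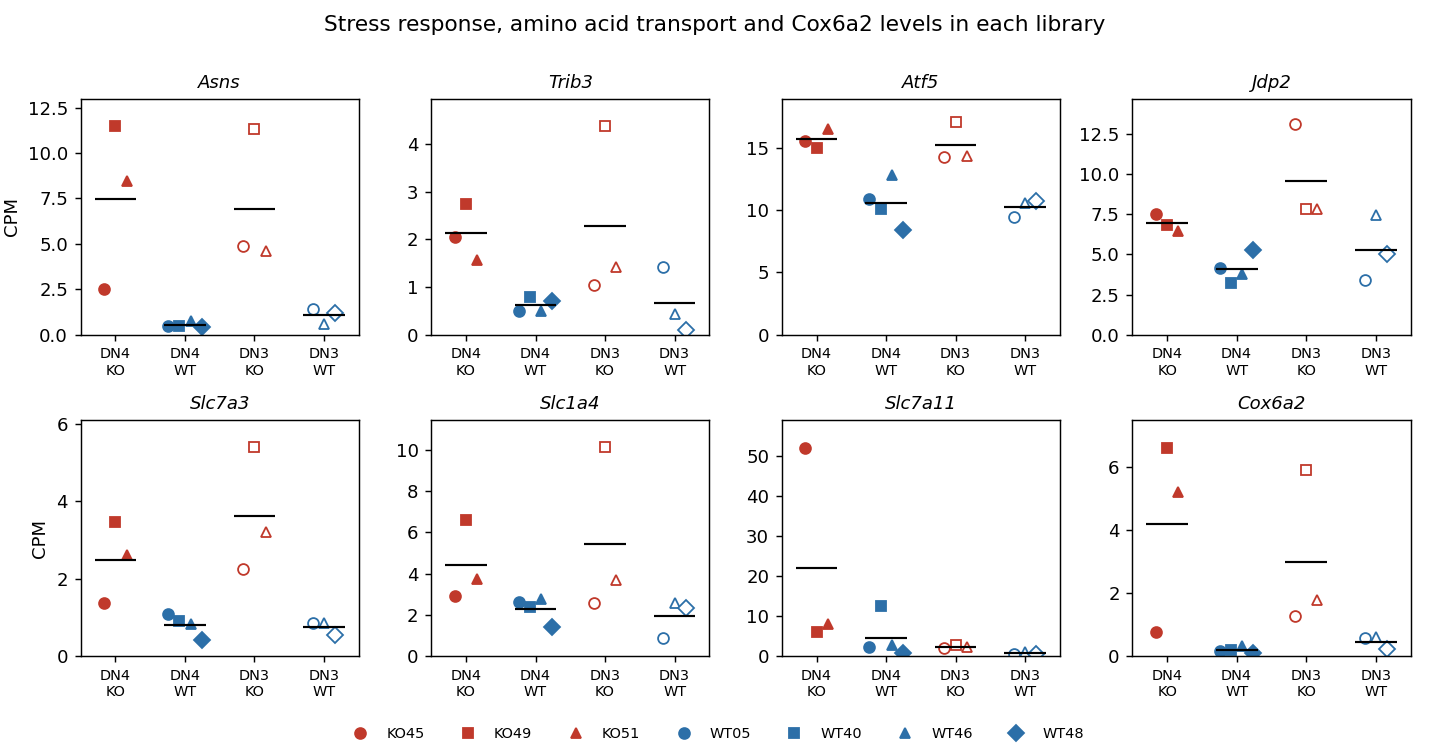
Level of 8 genes in each library in CPM on a linear axis that starts at 0, with DN4 libraries as filled and DN3 libraries as open symbols, KO-labelled mice in red and WT mice in blue, a symbol shape per mouse and a bar at the group mean. Asns lies between 2.51 and 11.5 CPM in the KO-labelled DN4 libraries and below 0.74 CPM in the WT ones, while Slc7a11 is set by KO45 at 52.2 CPM.

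The DN3 libraries of the same mice gave these genes positive differences too. They held 7141918 to 10990016 counts in the KO-labelled and 5926848 to 10532074 in the WT group, with WT05 the lowest. A DN3 library had a high share of ribosomal RNA-like counts, which limits the DN3 and interaction values. Asns was at 4.87, 11.3 and 4.62 CPM in the KO-labelled DN3 libraries and at 1.43, 0.600 and 1.17 CPM in WT05, WT46 and WT48, a log2 fold change of 2.78 ± 0.53 (SE). KO49 was the highest mouse at both stages. Trib3, Atf5, Jdp2, Slc7a3 and Slc1a4 had DN3 log2 fold changes of 2.12, 0.56, 0.81, 2.26 and 1.37, and Slc7a11 one of 1.65, and the groups overlapped in DN3 for Trib3 and Slc1a4. Without KO49 the DN3 values of Trib3 and Slc1a4 were 1.23 and 0.61, and without KO45 that of Jdp2 was 0.52. In DN3, 0 of 12105 genes passed by edgeR (0%) and 168 had an unadjusted p under 0.05 (1.39%). The difference between the stages was itself fitted over all 13 libraries, and 0 of 13361 genes passed by edgeR (0%), with 480 at an unadjusted p under 0.05 (3.59%). For Asns this interaction was 0.95 on the log2 scale with an unadjusted p of 0.258, so a difference in response between DN4 and DN3 was not detectable. Without WT05 of DN3 the Asns interaction was 0.80 and the DN3 log2 fold change of Asns was 2.96. The 2 stages come from the same animals and are not independent of each other. The interaction fit did not account for this, and its values with the mouse as a replicate block are given below.

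The largest source of spread among the DN4 libraries was not the genotype. The first principal component of the 500 most variable genes held 70.0% of their variance and ran from KO51 (-31.9), WT40 (-28.0) and WT46 (-17.8) through KO45 (2.34) to WT05 (16.8), KO49 (22.1) and WT48 (36.4). Among its 50 genes with the highest loadings 21 were immunoglobulin genes, and 141 immunoglobulin genes were among the 500. The first of its leading genes was Xist, and WT40 and WT46, which had Y-chromosome counts, both lay toward the negative end beside KO51, which had none. The part of sex in this component was not tested. The second component held 11.4% and set KO45 apart from the rest, at 21.1 against values between -11.5 and 5.40.

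B cell genes carried that first pattern. The summed level of 24 genes of B cell identity, such as Ighm, the heavy chain of the B cell receptor, was 4220, 6552 and 1502 CPM in KO45, KO49 and KO51 and 5686, 1758, 2208 and 10624 CPM in the WT libraries. The lowest and the highest library differed 7.07-fold, and the groups overlapped over most of the range. In DN3 the same sum lay between 504 and 643 CPM in all 6 libraries. Genes of MHC class II presentation followed, with 3395, 5473 and 800.2 CPM in the KO-labelled and 4433, 939, 1263 and 8937 CPM in the WT DN4 libraries. All 24 B cell genes and all 10 class II genes had a negative fold change, with medians of -0.35 and -0.25, and none had an unadjusted p under 0.05. With 1 library left out at a time the B cell median ran from -1.04, without KO49, to 0.28, without WT48, and it was also positive without KO51, at 0.10. The class II median ran from -0.87 to 0.54 in the same fits, and without WT48 all 10 class II genes were positive. Without KO51 it was 0.21. In such bulk RNA, fewer cells of a type and less RNA per cell cannot be told apart.

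**Figure D2:**
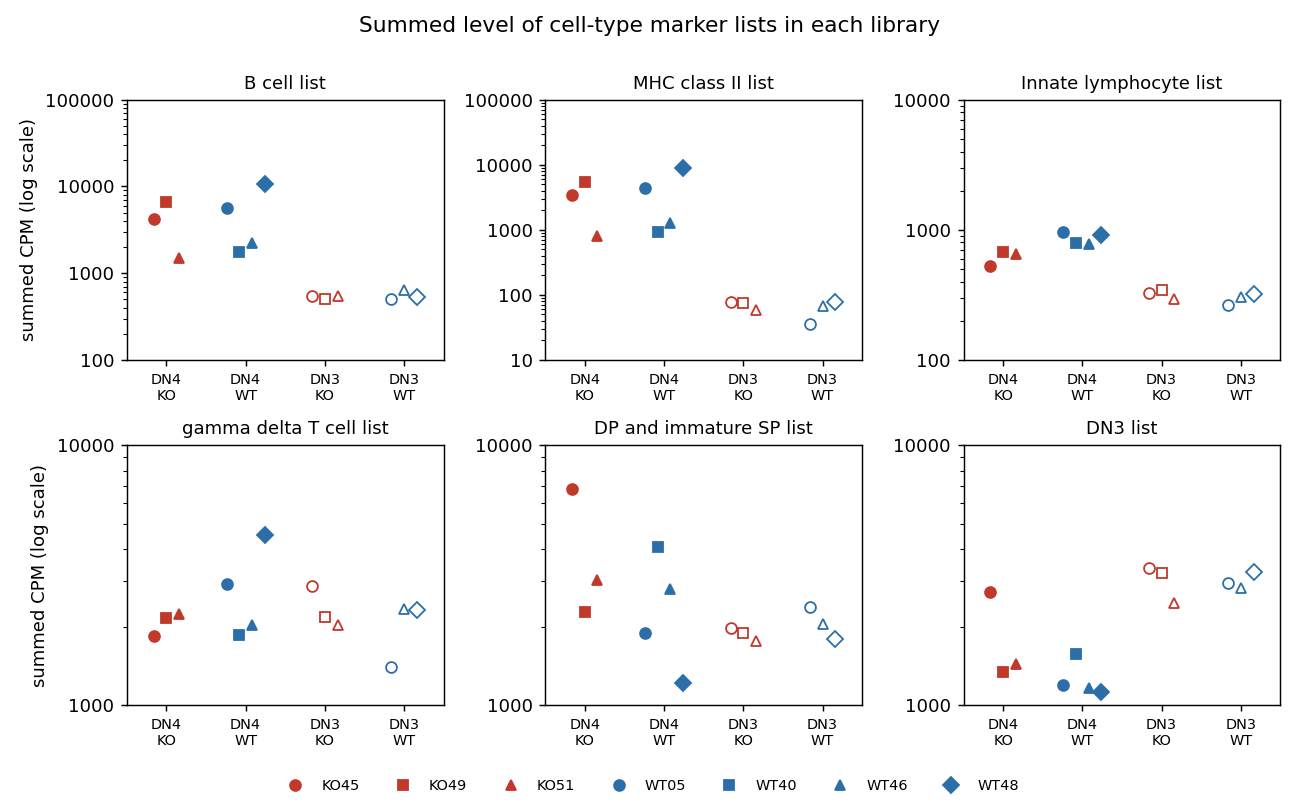
Summed CPM of 6 marker lists in each library on a log axis, with DN4 libraries filled, DN3 libraries open, KO-labelled mice in red and WT mice in blue, and a symbol shape per mouse. The B cell sum spans 1502 to 10624 CPM in DN4 with both groups mixed, whereas the innate lymphocyte sum is at most 677 CPM in the KO-labelled and at least 777 CPM in the WT DN4 libraries.

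Some genes of cytotoxic and innate lymphocytes had lower levels in the KO-labelled libraries, none at an adjusted p under 0.05 by edgeR. Their list of 28 genes summed to 531, 677 and 653 CPM in the KO-labelled libraries and to 966, 796, 777 and 920 CPM in WT, with no overlap. In DN3 the sum was between 264 and 347 CPM. Of 26 members tested 17 had a negative and 9 a positive fold change, and 11 were lower at an unadjusted p under 0.05 with none higher, against 2.56% of all nuclear genes. The median was -0.48. The count was between 8 and 10 when any one library was left out. Klra1, Cd160, Prf1 and Id2 left it in at least 1 of these fits, and the highest unadjusted p of these was 0.162, for Prf1. The median kept its sign, between -0.70 and -0.24.

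Nkg7, a protein of cytotoxic granules, was at 38.4, 46.7 and 39.8 CPM in the KO-labelled libraries and at 74.9, 66.9, 62.8 and 68.3 CPM in WT. The groups did not overlap and the spread within each was small. Its log2 fold change was -0.71 ± 0.11 (SE), with an unadjusted p of 0.000163 and an adjusted p of 0.164 by edgeR. Ctsw, a cysteine protease of cytotoxic cells, was at 91.7, 85.7 and 109 CPM against 146, 154, 153 and 131 CPM, a log2 fold change of -0.62 ± 0.11 (SE). Il2rb, the IL-2 and IL-15 receptor β chain, was at 99.5, 130 and 117 CPM against 257, 171, 147 and 170 CPM, with WT05 the highest. Eomes, a T-box factor of cytotoxic lymphocytes, was at 3.5, 3.59 and 2.92 CPM against 5.89, 6.70, 5.81 and 4.79 CPM. The chemokine Xcl1 was at 4.87, 6.48 and 5.85 CPM against 9.25, 8.70, 8.43 and 8.36 CPM. Each of these genes was lower in every KO-labelled library than in every WT library, as were Il18r1, the IL-18 receptor, with a log2 fold change of -0.95, and the NK receptor Klra1, with -1.27. Klrd1, another NK receptor, had one of -1.18 and overlapped through WT48, and Cd160, Prf1 and Id2 had -0.62, -0.58 and -0.46 and also overlapped.

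The members of this list did not move as 1 block, with 17 negative and 9 positive fold changes. Among the positive ones were the NK receptors Klrk1 (1.15, unadjusted p 0.0873 by edgeR) and Klrc2 (0.77) and the granzyme Gzmb (0.65). Klrk1 was at 2.36, 4.44 and 3.24 CPM in the KO-labelled libraries and at 1.35, 0.600, 0.655 and 3.47 CPM in WT. Each of these had low levels and overlapping groups. Ncr1, the NK cell receptor NKp46, was at 0.609, 3.66 and 0.209 CPM in the KO-labelled libraries and at 0.925, 0.10, 1.47 and 3.57 CPM in WT. Tbx21, the T-box factor T-bet, was at 3.88, 8.17 and 3.34 CPM against 3.78, 1.90, 3.68 and 10.8 CPM. Both were highest in KO49 and WT48, the 2 libraries with the highest B cell sum, and not divided by genotype. Gzma, the most abundant member at 191 to 362 CPM, had a log2 fold change of -0.28 and overlapped, and Zbtb16, the factor of innate-like T cells, was at 4.90 ± 2.56 CPM (SD, n = 3) against 6.85 ± 3.73 CPM (SD, n = 4).

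Some lymphocyte genes outside the list were named by their small p. Itgae, the integrin CD103 that binds E-cadherin, was at 49.9, 59.8 and 73.4 CPM in the KO-labelled libraries and at 97.8, 134, 128 and 117 CPM in WT, a log2 fold change of -0.96 ± 0.16 (SE) with an unadjusted p of 0.000271. Ms4a4b, a membrane protein of T cells, was at 151, 145 and 115 CPM against 227, 238, 214 and 205 CPM. Cd7, a surface protein of T and NK cells, was at 35.3, 44.4 and 40.4 CPM against 85.2, 68.5, 59.3 and 62.9 CPM. Itgae, Ms4a4b and Cd7 were picked among genes whose groups did not overlap, so their being apart follows from that choice. The chemokine receptor Cxcr6 was at 12.8, 11.5 and 9.92 CPM against 21.7, 21.5, 18.9 and 16.4 CPM. In DN3 Cd7 and Cxcr6 were below 2 CPM in every library, and Itgae lay between 4.62 and 13.6 CPM. For Ms4a4b, at 13.9 to 32.5 CPM in DN3, the interaction of stage and genotype was -1.13 with an unadjusted p of 0.00440, and for Ctsw it was -0.75 with an unadjusted p of 0.0356.

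The fold changes were then fitted with the summed level of the B cell, innate lymphocyte or DP list as a covariate, and of no other cell list. With the B cell sum in the model Nkg7, Ctsw, Itgae and Ms4a4b had log2 fold changes of -0.70, -0.64, -0.99 and -0.69, close to the values without it, and Asns had 3.76. In that fit 21 nuclear genes passed an adjusted p of 0.05 by edgeR, among them Asns, Pif1 and H2afx on the higher side and Nkg7, Ctsw, Itgae and Ggt1 on the lower. The list also held 4 Y-linked genes, 4 mtDNA-like pseudogenes and the airway genes Scgb1a1, Scgb3a2, Bpifa1 and Cyp2f2, whose counts came almost wholly from KO49 and WT48. With the innate lymphocyte sum in the model 0 genes of any kind passed by edgeR. Nkg7 then had -0.42 with an unadjusted p of 0.0585 and Il2rb had 0.01, while Ctsw kept -0.70, Itgae -0.98 and Ms4a4b -0.85 and Asns had 5.15. As that sum itself divides the genotypes without overlap, such a fit cannot tell them apart.

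**Figure D3:**
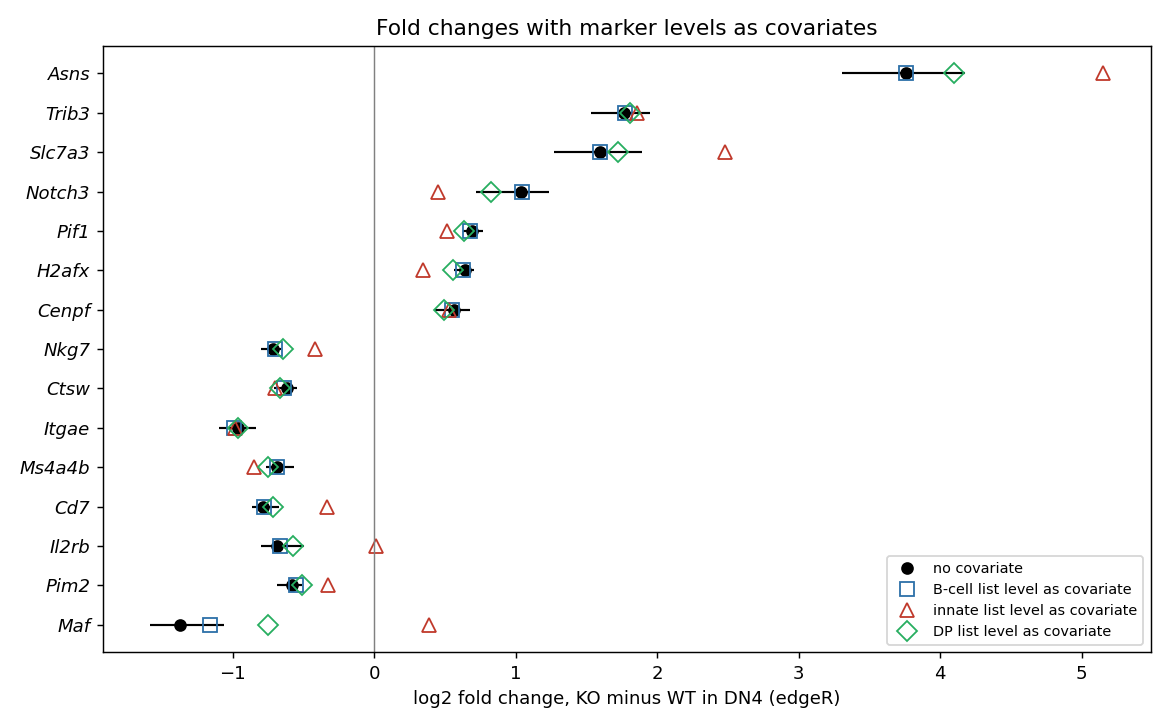
Log2 fold change of 15 genes in DN4 from edgeR without a covariate (black, with a line over the 7 fits that each leave out 1 library) and with the summed level of the B cell list (blue), the innate lymphocyte list (red) or the DP list (green) as a covariate. The blue squares lie on or near the black points, with Maf farthest at -1.16 against -1.37, and the red triangles lie farthest from the black points for Maf, Asns and Slc7a3.

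γδ T cell genes mostly had negative fold changes, with uneven libraries. Their 20 genes summed to 1847, 2162 and 2244 CPM in the KO-labelled libraries and to 2924, 1869, 2033 and 4518 CPM in WT, so that the groups overlapped and WT48 stood highest. Of 16 tested 15 had a negative fold change, the median was -0.57, and 2 were lower at an unadjusted p under 0.05. Maf, a transcription factor of γδ and innate-like T cells, was at 20.9, 37.5 and 36.6 CPM against 102, 45, 50.4 and 130 CPM, a log2 fold change of -1.37 ± 0.41 (SE). The WT libraries fell into a high pair, WT05 and WT48, and a pair close to the KO-labelled ones. Etv5, an ETS factor, was at 57.6, 71.3 and 69.5 CPM against 123, 69.6, 77.5 and 177 CPM, with the same division. The constant region gene Trdc was at 435 ± 55.4 CPM (SD, n = 3) against 564 ± 151 CPM (SD, n = 4). Without WT48 the median was -0.21, with the DP sum as a covariate it was -0.04, and with the innate sum it was 0.79 with 14 of 16 positive. The 2 lower members became 7 without WT40 and 12 without both libraries with Y-chromosome counts.

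Genes of mature αβ T cells followed the same direction. Of 12 tested 10 had a negative fold change with a median of -0.47, which was -0.26 without KO51. Itgb7, an integrin β chain, was at 143, 152 and 108 CPM against 203, 173, 173 and 242 CPM, and Ccr7, the lymph node homing receptor, at 68.2, 61.7 and 38.1 CPM against 85.6, 89.5, 74.4 and 95 CPM, with no overlap in either. The 8 GIMAP GTPases, which serve lymphocyte survival, all had a negative fold change with a median of -0.47, and 1 of them, Gimap3, had an unadjusted p under 0.05 (0.0433). Without KO51 their median was -0.27 with 5 of 8 negative, without WT48 it was -0.30, and with the innate sum as a covariate it was 0.02. With 1 library left out, between 0 and 3 GIMAP genes were lower at an unadjusted p under 0.05. The unadjusted p of Gimap3 by edgeR then went up to 0.162. Whether the same cells express the lists of B cell, innate, γδ, mature T and GIMAP genes was not tested. Nor was the part of these lists in each other's differences.

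**Figure D4:**
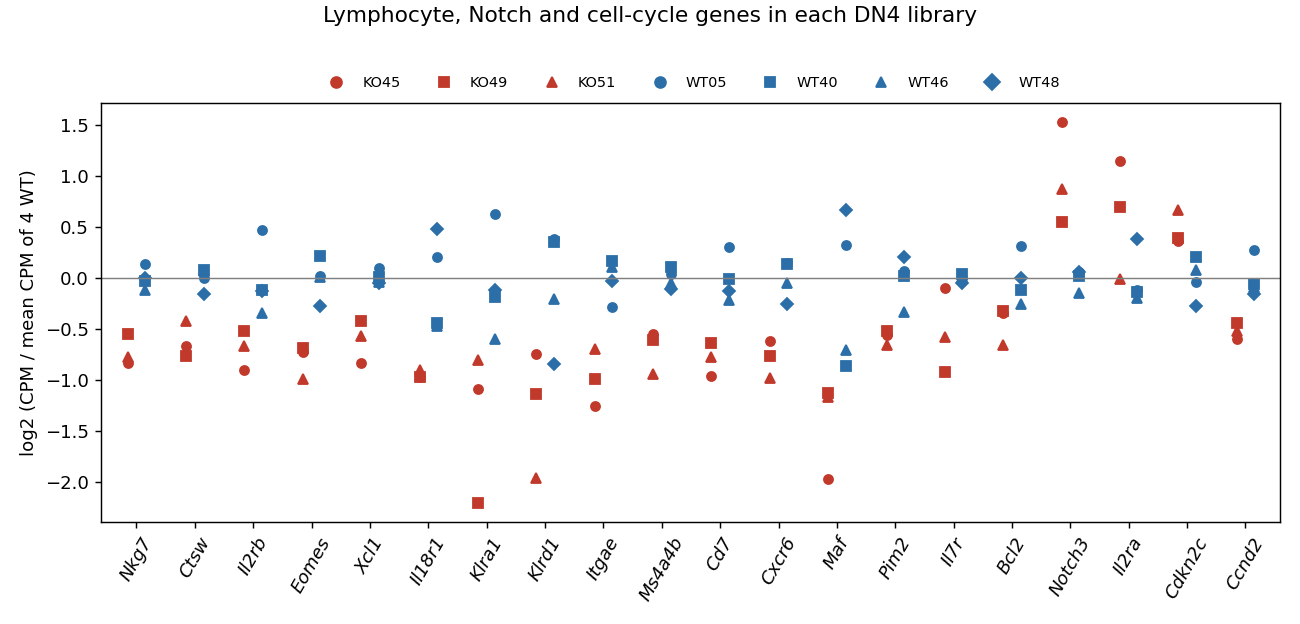
Level of 20 genes in each DN4 library as log2 of its CPM over the mean CPM of the 4 WT libraries, with KO-labelled libraries in red and WT libraries in blue and a symbol shape per mouse. Nkg7, Ctsw, Itgae, Ms4a4b and Cd7 are below every WT library in all 3 KO-labelled libraries, whereas the WT points of Maf spread over more than a log2 unit.

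A list of genes of immature single positive and DP cells had positive fold changes, mostly through KO45. Its 14 genes all had a positive fold change, with a median of 0.67, and 2 of them, Arpp21 (0.67) and Aqp11 (0.72), had an unadjusted p under 0.05. Both were also read in DN3, at 424 to 695 and 150 to 243 CPM, against 149 to 476 and 53.7 to 178 CPM in DN4. The sum was 6779, 2285 and 3038 CPM in the KO-labelled libraries and 1906, 4069, 2812 and 1215 CPM in WT. KO45 was the highest and WT48 the lowest, with the others mixed. Cd4 was at 714, 65.4 and 143 CPM against 44.7, 255, 48.8 and 18.6 CPM, and Rag1, a recombinase of antigen receptor genes, at 1691, 528 and 737 CPM against 431, 898, 536 and 252 CPM. Without KO45 the median of the list was 0.05, with 7 members positive and 7 negative. None had an unadjusted p under 0.05 without KO45, WT05 or WT48, and 7 had one without WT40. With the innate sum as a covariate all 14 were negative, with a median of -0.86. KO45 also had the highest sum of DN3 genes, 2732 CPM against 1126 to 1578 CPM in the other DN4 libraries, of which Rag1, a gene on both lists, gave 1691 CPM. Of 11 DN3 genes tested 8 had a positive fold change and 2, Notch3 and Il2ra, an unadjusted p under 0.05.

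NOTCH signals drive DN3 cells and fade after β-selection. Notch3, a receptor and target of the pathway, was at 155, 78.7 and 98 CPM in the KO-labelled and at 55.8, 54.5, 48.6 and 56.1 CPM in the WT DN4 libraries, a log2 fold change of 1.04 ± 0.21 (SE) with an unadjusted p of 0.000929. All KO-labelled libraries were higher, KO45 most, and without KO45 the value was 0.72. In DN3 Notch3 was at 594, 358 and 322 CPM against 472, 461 and 454 CPM, and the interaction was 1.12 with an unadjusted p of 0.00424. Notch1 was at 459, 543 and 655 CPM against 410, 426, 466 and 395 CPM in DN4, overlapping by KO45. Lfng, a glycosyltransferase that tunes NOTCH receptors, lay the other way, at 57.3, 68.8 and 50.4 CPM against 86.9, 88.0, 82.6 and 97.2 CPM, with no overlap. Il2ra was at 25.7, 18.7 and 11.5 CPM against 10.7, 10.5, 10.1 and 15.1 CPM. The list of 24 NOTCH receptors and targets had 11 positive and 11 negative members of 22 tested with a median of -0.04. Without WT48 the median was 0.20 with 16 of 21 positive, and with the innate sum as a covariate it was 0.29.

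Receptor chains and signals of the cytokines IL-2 and IL-7 were split. Il7r, the IL-7 receptor α chain, was at 64.0, 36.2 and 45.9 CPM in the KO-labelled libraries and at 68.5, 70.4, 69.1 and 66.0 CPM in WT. The WT libraries were close together and the KO-labelled ones spread below them. Bcl2, which protects from apoptosis, was at 94.9, 96.0 and 76.5 CPM against 150, 111, 101 and 120 CPM. Pim2, a survival kinase, was at 37.8, 38.9 and 35.5 CPM against 58.5, 56.5, 44.4 and 64.4 CPM, a log2 fold change of -0.58 ± 0.14 (SE). With Il2rb these were the 4 lower members of the list at an unadjusted p under 0.05, all without overlap, and Il2ra and Socs1 were the 2 higher ones. Without KO45, WT05 or WT46 none was higher at that level, and without KO51 2 were lower. The interaction of stage and genotype was -0.62 for Bcl2 and -0.63 for Il7r, with unadjusted p-values of 0.0138 and 0.0334. In the BCL2 family list Bcl2 alone of 16 tested had an unadjusted p under 0.05.

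Genes that track the strength of T cell receptor signals leaned down. Of 28 tested 23 had a negative fold change with a median of -0.18, and 2 were lower at an unadjusted p under 0.05. The median was -0.09 without WT05 and -0.28 without KO45, and the count at that level was 0 without WT05 or KO49, 1 without KO45 or KO51 and 8 without WT48. Nab1, a corepressor of EGR factors, was at 59.9, 57.2 and 55.4 CPM against 77.4, 71.0, 64.1 and 63.7 CPM, and Spry2, a feedback inhibitor, at 8.91, 8.73 and 7.31 CPM against 19.3, 11, 10.9 and 10.5 CPM. Pre-TCR chains and proximal signalling genes had 12 positive and 11 negative members and a median of 0.003, with none at an unadjusted p under 0.05. The balance turned on single libraries, with 5 positive without KO45 and 18 without KO49, and with the innate sum as a covariate 3 were positive and the median was -0.38. Of 29 calcium signalling genes 2 were higher at that level. Itpr2, an IP3 receptor channel of the endoplasmic reticulum, was at 309, 215 and 231 CPM against 201, 189, 176 and 184 CPM, and Mcu, the pore of the mitochondrial calcium uniporter, at 28.8, 21.5 and 24.1 CPM against 19.8, 21.1, 17.1 and 20.2 CPM. Their median was -0.005. T-lineage transcription factors had 16 positive and 14 negative members, with Myb (0.54) and Gfi1 (0.50) on the higher and Maf and Id2 on the lower side at an unadjusted p under 0.05. None was higher at that level without KO45 or WT05 and 5 were without KO49 or WT40, and the value of Myb went down to 0.25 with 1 library left out.

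Cell cycle genes leaned up in mitosis and not stably in replication. All 25 genes of mitosis had a positive fold change, with a median of 0.33, and 4 had an unadjusted p under 0.05. Cenpf, a kinetochore protein, was at 98.3, 87.9 and 101 CPM in the KO-labelled libraries and at 80.0, 59.5, 72.5 and 46.7 CPM in WT, without overlap and with WT48 lowest. Cenpa, the centromeric histone, was at 117, 111 and 121 CPM against 97.0, 90.0, 107 and 88.4 CPM, and Cenpe and Kif23, motors of the spindle, had log2 fold changes of 0.36 and 0.33. Without WT48 the median of the list was 0.19 with 22 of 25 positive, and the count at an unadjusted p under 0.05 ran from 1 (without WT40) to 10 (without WT46) with 1 library left out. With the B cell, DP and innate sums as covariates it was 17, 1 and 0 of 25, and with all 13 libraries in one fit 0. Of 31 replication genes 26 had a positive fold change, but the median was 0.08 and none had an unadjusted p under 0.05. The tally turned with single libraries, to 6 positive without KO51 and 10 without WT48, and was 31 without KO45.

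Single genes of division were named by rank. Pif1, a DNA helicase, was at 46.9, 42.4 and 52.4 CPM against 27.6, 30.7, 31.4 and 27 CPM, a log2 fold change of 0.69 ± 0.12 (SE). Gas2l3, a cytoskeletal linker of dividing cells, was at 14.0, 12.7 and 11.6 CPM against 7.82, 6.70, 7.28 and 6.52 CPM. H2afx, the histone phosphorylated at DNA breaks, was at 192, 190 and 214 CPM against 111, 145, 144 and 109 CPM. In these 3 genes the groups were apart, but the ranking admitted only genes without overlap, so this follows from the choice. Among 18 G1 genes Cdkn2c, an inhibitor of CDK4 and CDK6, was higher at 61.7, 62.9 and 76.3 CPM against 46.8, 55.3, 51 and 39.7 CPM. Ccnd2, cyclin D2, was lower at 166, 184 and 176 CPM against 304, 241, 237 and 225 CPM, and Ccnd3, cyclin D3, was at 683, 620 and 734 CPM against 393, 639, 566 and 373 CPM. For Ccnd2 the interaction of stage and genotype was -0.66 with an unadjusted p of 0.00376. Of 26 p53 target genes 17 had a negative fold change and 1, Ei24 (-0.24), an unadjusted p under 0.05. Of 28 genes of MYC and ribosome biogenesis 1, Mxd3 (0.64), a MYC antagonist of S phase, was higher at that level.

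Nuclear genes of mitochondria stayed near the median of all genes, whereas 10 of 10 tested mtDNA-encoded genes were negative with a median of -1.50. Nuclear subunits of complex I had a median of 0.07, with 32 of 45 positive and 3 at an unadjusted p under 0.05, all higher. They were the assembly factors Ndufaf3 (0.37) and Ndufaf8 (0.37) and the subunit Ndufb10 (0.23). With 1 library left out the count ran from 0 (without KO51, WT05 or WT40) to 4 (without KO45), and the median from 0.01 (without WT48) to 0.12 (without KO45). Complexes III, IV and V had medians of 0.02, 0.08 and -0.02 over 10, 13 and 18 genes, with none at that level and with medians between -0.10 and 0.16 when 1 library was left out. Of 77 mitochondrial ribosomal proteins 50 had a positive fold change, or 37 without KO51, the median was 0.05 and Mrpl1 (-0.36) alone had an unadjusted p under 0.05. With 1 library left out their median ran from -0.007 to 0.096, and between 0 and 5 were higher at that level. Genes of mtDNA maintenance, transcription and RNA processing had a median of -0.003 over 32, where Fastkd2 (-0.31), an RNA-binding protein of mitochondria, was lower at that level. Chaperones and proteases of mitochondrial stress (median 0.02 over 18), fusion, fission and OPA1-processing genes (-0.03 over 24) and mitophagy genes (-0.01 over 16) had none. Yme1l1, a protease that cleaves OPA1, was below all WT libraries at 152, 143 and 142 CPM against 191, 172, 163 and 152 CPM, but WT48 came within 1 CPM of KO45, and the unadjusted p was 0.0629.

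Metabolic lists had few members at an unadjusted p under 0.05. Glycolysis had a median of -0.09 with 21 of 31 negative, the tricarboxylic acid cycle -0.01 over 22 and fatty acid oxidation -0.01 over 25, none with a member at that level. The glycolysis median was -0.01 without KO45, -0.18 without KO51 and -0.0044 without both libraries with Y-chromosome counts. Cholesterol genes had 17 of 24 positive, or 7 without KO51 and 11 without WT48, and Mvk, mevalonate kinase, was at 16.8, 16.4 and 18 CPM against 11.1, 14.5, 13.2 and 12.7 CPM. Among 27 glutathione and antioxidant genes Ggt1 and Ggt5, which split glutathione outside the cell, were lower with log2 fold changes of -1.26 and -0.63 and no overlap, and Slc7a11 was the higher one. Interferon-stimulated and mtDNA-sensing genes had 25 of 35 positive, a median of 0.05 and none at an unadjusted p under 0.05. They had 7 positive with a median of -0.24 without KO49 and 34 with a median of 0.36 without KO51, so single libraries decided the direction. Cytosolic ribosomal proteins had 71 of 78 positive with a median of 0.07, and Rpl29 alone had an unadjusted p under 0.05. Without KO45, 11 were higher at that level with a median of 0.15, and without KO49 the median was 0.04.

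**Figure D5:**
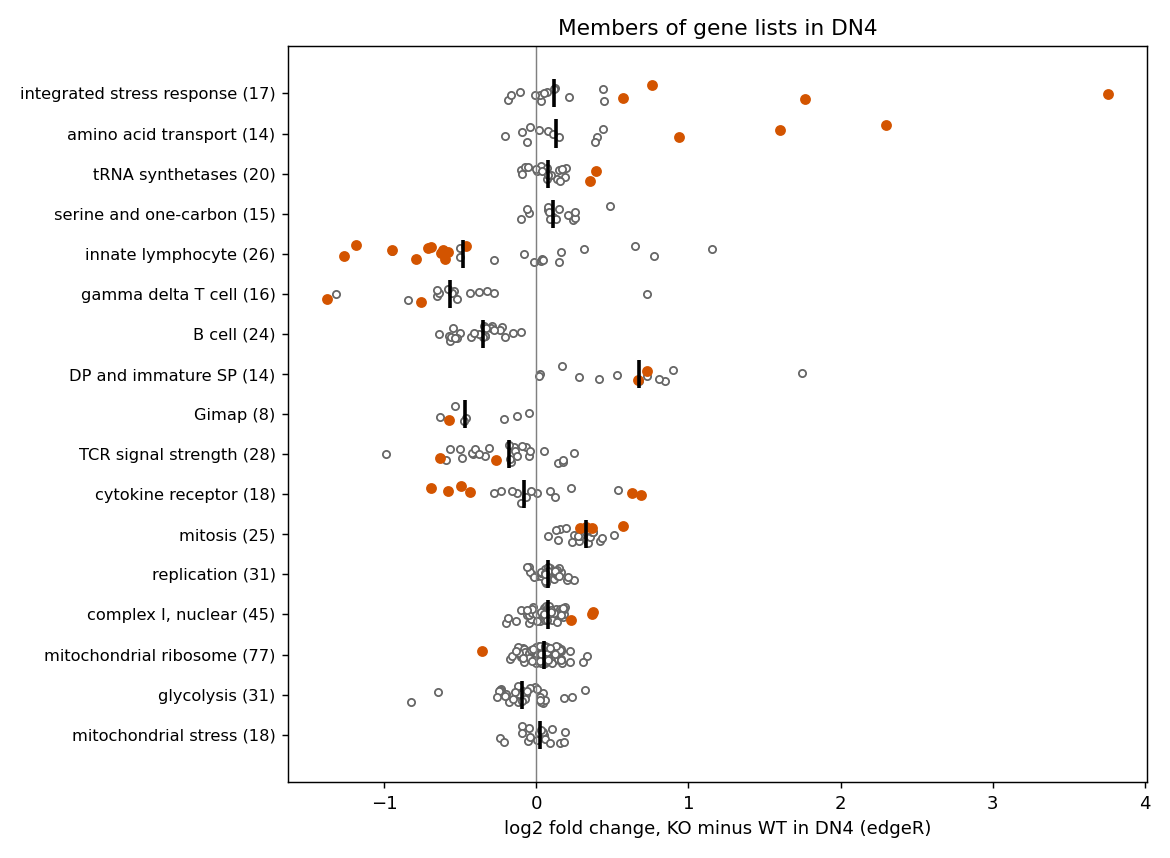
Log2 fold change of each tested member of 17 gene lists in DN4 (1 point per gene, number of genes in brackets), with members at an unadjusted p under 0.05 filled in orange and a bar at the list median. Asns at 3.76 lies farthest to the right, the innate lymphocyte list holds 11 filled points on the negative side, and the mitochondrial, glycolytic and replication lists crowd around 0.

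The 7 nuclear genes that the study singled out for DN4 were chosen on these samples and are no independent evidence. Besides Asns, Maf and Cox6a2 they include Dapl1, whose level was 2.66, 0.563 and 1.57 CPM in the KO-labelled libraries and 8.16, 6.6, 7.20 and 3.87 CPM in WT. Ggt1 was at 8.22, 4.37 and 7.31 CPM against 13.6, 19.6, 19.5 and 10.5 CPM, and Nwd1 at 113, 38.2 and 52.2 CPM against 22, 37.6, 28.1 and 15.4 CPM, where KO49 and WT40 nearly met. The WT libraries held 19, 15, 10 and 5 counts of Spsb4 while KO49 held 2 and KO45 and KO51 none, a pooled rate 20.6-fold higher in WT with an exact 95% interval from 5.40 to 175 for counting error. In DN3 Nwd1 was at 111, 87.1 and 94.9 CPM against 128, 130 and 104 CPM, and its interaction was 1.65 with an unadjusted p of 0.00374.

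The remaining genes named by rank belong to no list. Tmem108, a transmembrane protein, was at 25.6, 22 and 21.4 CPM in the KO-labelled DN4 libraries and at 13.5, 14.6, 12.8 and 15.7 CPM in WT, and in DN3 it was at 28.8, 31.3 and 27.6 CPM against 4.86, 12.6 and 13.6 CPM. It was higher in the KO-labelled libraries at both stages without overlap, which the ranking required in DN4 but not in DN3. Without WT05 its DN3 log2 fold change was 1.16, against 1.43 with all DN3 libraries. Bbs1, a subunit of the ciliary BBSome, had a log2 fold change of 0.91. Crim1, a membrane protein that binds BMPs, the protease Klk8, the adaptor Appl2 and the kinase Mapkapk3 had -0.93, -0.69, -0.66 and -0.73. In each all KO-labelled libraries lay below all WT libraries, which the ranking required.

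Other cell types left weaker signals. Myeloid and dendritic genes summed to 220 to 518 CPM in the KO-labelled and 221 to 671 CPM in the WT libraries, with 5 of 10 tested positive. Single libraries moved this tally, to 2 positive without KO49, 8 without KO51 and 10 without WT48. Erythroid genes summed to at most 6.32 CPM in any DN4 library, with Slc4a1 at 0 throughout, and their 1 tested member Hbb-bs had a log2 fold change of -1.16. Stroma genes summed to 145 to 214 CPM against 149 to 275 CPM, with Foxn1, the factor of thymic epithelium, at 0 in every library and 2 of 5 tested members positive. Col1a1 and Col3a1, fibrillar collagens, were at most 1.15 CPM in the KO-labelled and 3.30 CPM in the WT libraries, with log2 fold changes of -1.15 and -1.98.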

How the data were processed

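Messenger RNA of sorted DN3 and DN4 thymocytes was sequenced with a stranded kit. The authors aligned the reads with STAR to mm10 and deposited whole-number counts per gene from featureCounts. Versions and the strand setting are not given in the sources used here. DN4 libraries held 9565303 to 14148661 counts, and low counts limit the precision of genes of a few CPM. The main test was edgeR 4.0.16 (quasi-likelihood, TMM scaling, filterByExpr with a minimum count of 10, Benjamini-Hochberg adjustment, threshold 0.05) on 3 KO-labelled and 4 WT DN4 libraries in R 4.3.3. CPM values use TMM-scaled library sizes. DN3 and the interaction of stage and genotype were fitted the same way. Alternatives were DESeq2 1.42.0, limma-voom (limma 3.58.1), other scalings and filters, all 13 libraries, each library left out, no libraries with Y-chromosome counts, and B cell or innate levels as covariates. The DP covariate and the DESeq2 fits that leave out libraries were chosen after seeing the data. Scripts were tested on simulated data. The groups and lists, some taken from earlier work on these data, were chosen with earlier results of these data known. Genes were named by smallest unadjusted p among non-overlapping genes (10 higher, 10 lower), by DESeq2 calls, by up to 4 leading members of each list and by the study's own choice; not all are printed. Other genes, such as Opa1 and lineage genes, are given as checks. Each mouse number ties a DN3 to a DN4 library: in all 6 mice with both, deviations from the group means correlated, by 0.124 to 0.46 over 13361 genes. No columns of per-sample values were left unused (0). P-values of the DN4 and of the DN3 comparison measure the spread between mice, 1 library each. Those of the interaction treat the libraries as independent, though 6 mice gave both a DN3 and a DN4 library. Some genes and 1 sequence are not reported here.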

Additional observations from a re-analysis of the deposited data

Results flagged for a closer look

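In the group of 4 WT DN4 libraries, 4 of 102 values had 1 library far from the others, by a gap above Dixon's critical value for its share of the whole range. Chance alone gives about 1 such group in 20. Cd4 was at 255 CPM in WT40 and between 18.6 and 48.8 CPM in the other WT libraries, a gap of 0.872 of the range. The summed level of DN3 genes in WT40 was 1578 CPM, against 1126 to 1199 CPM, a gap of 0.839. Rag1, which is also on the DP list, gave 898 CPM of that sum in WT40 and between 252 and 536 CPM in the other WT libraries. Il2ra was at 15.1 CPM in WT48 and between 10.1 and 10.7 CPM in the others, a gap of 0.891. Spry2 was at 19.3 CPM in WT05 and between 10.5 and 11 CPM in the others, a gap of 0.942.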

How the results depend on the processing

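With edgeR 7 genes passed, 0 of them nuclear. The counts were 11 and 1 (Asns) with no filter beyond 1 count, 54 and 44 by DESeq2, 5 and 1 (Asns) with all 13 libraries in one fit, 1 and 1 (Rpl29) without the 2 libraries with Y-chromosome counts, 32 and 21 with the B cell level, 0 and 0 with the innate level and 3 and 0 with the DP level as a covariate. With 1 library left out they ran from 0 to 8 and from 0 to 2 (Asns and Cox6a2 without KO45); 0 genes passed without KO49, KO51, WT05, WT40 or WT46. DESeq2 called 35 other nuclear genes, and with 1 library left out 8 (without WT05, 8 of them shared with the 35) to 45 (without WT48, 17 shared). Without the Y-chromosome libraries it called 178, of which 20 were shared. Limma-voom and the other scalings called 0 nuclear genes. The innate level itself divides the groups, and as a covariate it turned the sign of Slc7a11 (-2.08), Il2rb (0.014), Cd160 (0.32), Socs1 (-0.089), Maf (0.39), Nwd1 (-0.35), Etv5 (0.35), Cd4 (-2.55), Rag1 (-1.09), Arpp21 (-0.49), Aqp11 (-0.66), Ccnd3 (-0.10), Rpl29 (1.19), Gfi1 (-0.18) and Myb (-0.38); the cause was not tested. Atf4 ran from -0.035 (without KO49; -0.014 without WT40) to 0.10 (without KO45) and turned to -0.00087 with 13 libraries and -0.030 without the Y-chromosome libraries, where Ddit3 was -0.065. In DN3, Notch3 ran from -0.44 (without KO45) to 0.042 (without KO51) and Maf from -0.15 (without KO45) to 0.23 (without KO51). The interaction was 0.041 for Atf5 and 0.11 for Jdp2 without WT05 of DN3.

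DN4 KO-labelled and WT libraries come from different mice and cannot be paired. With the mouse as a replicate block, which ties the DN3 and DN4 libraries, the interaction called 0 genes by edgeR, as without it, with 702 against 480 at an unadjusted p under 0.05. For Asns the interaction was 0.77 with the replicate block, and for Notch3, Ccnd2 and Bcl2 it was 1.12, -0.67 and -0.65.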

Other observations

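Rpl29, a ribosomal protein gene, divided the mice and not the genotypes. In DN4 it was at 38.0, 48.4 and 49.4 CPM in KO45, KO49 and KO51, at 46 and 44.4 CPM in WT40 and WT46, and at 347 and 336 CPM in WT05 and WT48. In DN3 WT05 and WT48 were again high, at 256 and 357 CPM, with the other mice between 41.9 and 46.9 CPM.

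Secreted proteins of the airway epithelium were read in single DN4 libraries. Scgb1a1 was at 56.5 CPM in KO49 and 9.27 CPM in WT48 and at most 1.26 CPM in the other DN4 libraries. Bpifa1 was at 31.8 CPM in KO49 and 9.17 CPM in WT48 and at most 0.685 CPM elsewhere in DN4. These are also the libraries with the highest B cell sums, and the source of the reads was not tested.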
